A study of Mus musculus with 13 samples.

Results

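Phox2a, Hand2, Chat, Th, Ret, Gfra2, Nrtn and Prph, 8 of the 23364 genes listed for each sample, were followed by symbol through development of the mouse submandibular gland as genes of its parasympathetic ganglion. They were picked by name as regulators, enzymes, receptors and a filament protein of autonomic neurons, and a ligand that acts on such neurons. RNA of the dissected gland of C57BL/6 mice was sequenced in 13 samples, namely 3 at the youngest embryonic day, E14.5, and a pair for every later age, E16.5, E18.5, postnatal day 5 (P5), 4 weeks (4wk) and 12 weeks (12wk). The 7 embryonic samples formed 1 stage, the 2 P5 samples the neonatal stage and the 4 samples of 4wk and 12wk animals the adult stage. The labels name no engineered allele and no treatment. Per the study's methods, each embryonic sample pooled the glands of several animals and the sex of the embryos was not determined. The 4wk and 12wk animals were male, so age and sex cannot be told apart in part of the series, and the sources used here give the sex of the P5 animals in more than one way.

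Parasympathetic neurons of the submandibular ganglion descend from the neural crest, gather beside the gland bud as it branches, and release acetylcholine onto the epithelium. Phox2a is a homeodomain transcription factor and Hand2 a basic helix-loop-helix factor, and both belong to the program that specifies autonomic neurons. Neurturin, the product of Nrtn, is a ligand of the glial cell line-derived neurotrophic factor (GDNF) family that acts on neurons through the co-receptor Gfra2 and the receptor tyrosine kinase Ret, and it is known for its need in parasympathetic innervation. Peripherin, from Prph, is an intermediate filament of peripheral neurons. Chat makes acetylcholine, and Th is the rate-limiting enzyme of noradrenaline synthesis in sympathetic neurons.

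Promoter letters are shown for the 2 transcription factors among the genes, Hand2 and Phox2a, and for the ligand Nrtn, because the 2 factors were highest at E14.5 and the ligand at E16.5. The letters are the 250 bases before the start site in the RefSeq promoter table (GRCm38.p6), in which 6 of the 8 genes were found, and each run was placed on mm9 by an exact match. Capitals mark the E-box, CANNTG, to which basic helix-loop-helix factors bind, and the homeodomain core, ATTA or TAAT, each searched on both strands.
Hand2 promoter: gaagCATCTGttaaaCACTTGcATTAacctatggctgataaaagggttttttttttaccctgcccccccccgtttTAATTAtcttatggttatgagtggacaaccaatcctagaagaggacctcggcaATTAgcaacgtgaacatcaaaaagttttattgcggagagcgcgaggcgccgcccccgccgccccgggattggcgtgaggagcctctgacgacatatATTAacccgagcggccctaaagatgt
Nrtn promoter: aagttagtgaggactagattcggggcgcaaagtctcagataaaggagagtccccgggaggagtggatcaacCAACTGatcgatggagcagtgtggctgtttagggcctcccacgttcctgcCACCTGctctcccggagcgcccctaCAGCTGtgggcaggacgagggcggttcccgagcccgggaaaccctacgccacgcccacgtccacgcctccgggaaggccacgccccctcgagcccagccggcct
Phox2a promoter: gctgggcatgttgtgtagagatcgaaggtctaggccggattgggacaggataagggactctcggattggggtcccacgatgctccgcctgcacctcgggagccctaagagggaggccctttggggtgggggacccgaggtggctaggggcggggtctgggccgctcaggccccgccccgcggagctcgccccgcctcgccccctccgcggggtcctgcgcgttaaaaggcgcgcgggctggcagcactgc
The Hand2 run lies at chr8:59799530-59799779 on the plus strand of mm9 and held 2 E-boxes and 5 homeodomain cores, in 49.2% G and C. The Nrtn run, at chr17:56896972-56897221 on the minus strand, held 3 E-boxes and no core, with 64.8% G and C. Neither motif was among the letters of the Phox2a run at chr7:108966577-108966826 on the plus strand, of which 70.4% were G or C. Among all 32851 promoters of the table, 66.2% held an E-box and 54.9% a homeodomain core, with a median G and C content of 52.4%, so presence of either motif is common and is given as a description only.

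The values are fragment counts scaled to gene length and library size (FPKM), so levels can be set side by side between genes. Whole read numbers were recovered from the steps of the FPKM, which gave 5817293 and 7957918 reads on genes in the 4wk samples and 17345305 to 48314162 in the other 11. Exact zeros at 4wk therefore rest on the shallowest libraries. The 10 most abundant genes took 48.1% to 61.1% of the summed FPKM in the adult samples against 5.9% to 17% in the embryonic ones, and the median gene stood at a log2 fold change of -0.75 in the adult against embryo comparison, or -0.08 once the samples were rescaled by the median of ratios. In a whole gland, fewer neurons, less RNA per neuron and more RNA from other cells cannot be told apart. The sample E14.5 replicate 1 stood apart from its group, at a distance of 57.6 and 53.4 from replicates 2 and 3, which were 20.4 from each other on the log2(FPKM + 1) scale. The 4wk pair, on which the Ret peak and the P5 to 4wk calls rest, was farther apart than any other pair, at 68.2, against 27.8 to 48.6 for the pairs of E16.5, E18.5, P5 and 12wk. Each member was tested by limma on log2(FPKM + 1) fitted over 14650 genes that reached 1 FPKM in a sample, and a gene was called when its log2 fold change was 1 or more in size and its Benjamini-Hochberg adjusted p lay below 0.1. Of the 8 genes 6 reached that floor, and Chat and Th did not.

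Markers of parasympathetic ganglion neurons were detected, at levels that differed widely. Slc18a3, the vesicular acetylcholine transporter, was between 0.383 and 1.37 FPKM in the embryonic samples and at 0.952 and 1.61 in the P5 samples, and Slc5a7, the choline transporter, was at 0.839 and 1.60 FPKM at P5. Vip, a co-transmitter of these neurons, ranged from 2.39 to 12.1 FPKM in the embryo. Chrna3 and Chrnb4, subunits of the ganglionic nicotinic receptor, had up to 2.66 and 0.959 FPKM, and Elavl4 and the tubulin Tubb3, which neurons of other kinds also make, had up to 3.44 and 42.2 FPKM. Of these 7 markers, 5 were at 0 reads in 4wk replicate 1, the shallowest library, and in no other sample was any at 0 reads. Of 4 markers of sympathetic or noradrenergic neurons, Dbh, which converts dopamine to noradrenaline, did not pass 0.259 FPKM in any sample and was at 0 in both E18.5 samples and in 4wk replicate 1. The noradrenaline transporter Slc6a2 was higher, at 0.286 to 1.02 FPKM in the embryo, 1.64 and 1.82 at P5 and 0.0753 to 0.952 in the adult, so its P5 levels were above the 0.952 and 1.61 of Slc18a3. Slc18a2, the vesicular monoamine transporter, had up to 2.11 FPKM, and the peptide gene Npy had 1.52 in E14.5 replicate 1, at most 0.434 in any other sample and 0 in the adult. The part of sympathetic fibers or other cells in the values of the 8 genes was not tested.

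**Figure D1:**
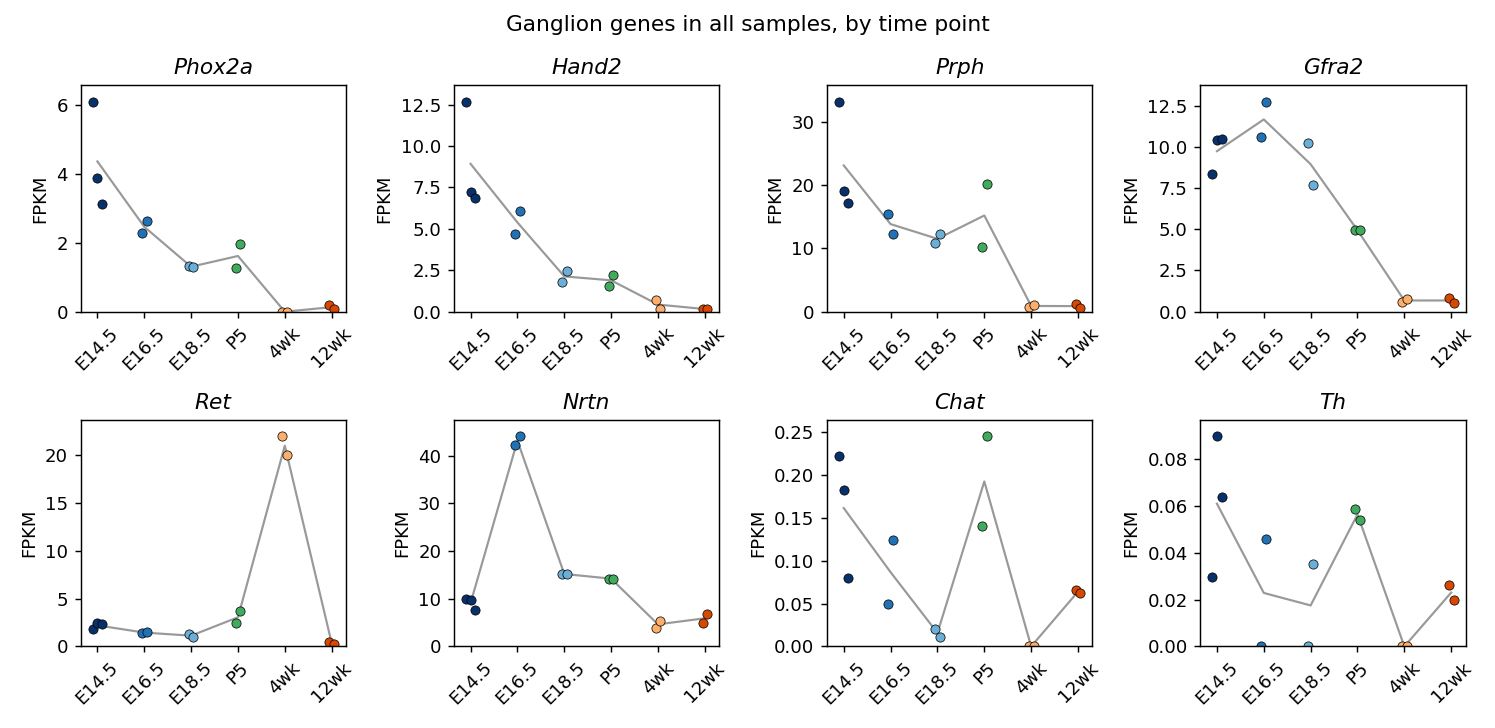
FPKM of the 8 genes in each of the 13 samples (points) by time point, with the line through the means of a time point and a separate linear axis for each gene. Phox2a, Hand2, Prph and Gfra2 are near 0 in all 4 adult samples, Nrtn peaks in the E16.5 samples at 42.3 and 44.0 FPKM, Ret peaks in the 4wk samples at 21.9 and 19.99 FPKM, and Chat and Th stay at or below 0.245 FPKM throughout.

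Phox2a had its highest levels at the start of the series. It was at 6.09, 3.87 and 3.12 FPKM in the 3 E14.5 samples, then 2.30 and 2.63 for E16.5, 1.33 and 1.28 for E18.5, and 1.27 and 1.96 for P5. No read fell on it in either 4wk sample, and 12wk samples had 0.199 and 0.0656 FPKM, which are 7 and 3 reads. Its levels did not overlap between E14.5, E16.5 and E18.5, each being lower than the one before, whereas P5 overlapped with E18.5. Of all tested genes, 24.5% lay below without overlap from E14.5 to E16.5 and 37.4% from E16.5 to E18.5. Between consecutive embryonic ages the log2 fold changes were -0.59 (adjusted p = 0.082) and -0.59 (adjusted p = 0.15), neither of which reached the fold threshold. From P5 to 4wk Phox2a fell, with a log2 fold change of -1.38 ± 0.24 (SE, adjusted p = 0.00063). At 4wk it had no read, and 3 reads are worth 0.321 and 0.234 FPKM in those libraries. The mean of 1.62 FPKM at P5 was 5.83 times the mean of these floors, 0.277 FPKM. The 12wk values lie under those floors, so a difference between 4wk and 12wk was not detectable at this depth. Phox2a lies at chr7:108966827-108971680 on the plus strand of mm9, and 534 of its 2049 exonic bases in GENCODE vM1 are shared with Inppl1. The length recovered from the steps of its FPKM was 1609 bases. Whether the gene model used for counting held the shared bases was not tested.

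Hand2 followed a like course at a higher level. The E14.5 samples had 12.7, 7.22 and 6.88 FPKM, the E16.5 samples 4.71 and 6.06, and the E18.5 samples 1.78 and 2.48. It stood at 1.56 and 2.23 FPKM in P5 glands, 0.692 and 0.169 in 4wk glands, and 0.144 and 0.173 in 12wk glands. No adult sample reached the lowest embryonic or P5 sample, and E14.5, E16.5 and E18.5 did not overlap. The 2 embryonic steps were without overlap, in the same direction, for 24.5% and 37.4% of all tested genes. The step from E16.5 to E18.5 was called, at a log2 fold change of -1.03 ± 0.28 (SE, adjusted p = 0.045), but it sat at the fold threshold and was lost with the samples rescaled (-0.86, adjusted p = 0.096), with a pseudocount of 0.1 (adjusted p = 0.13), with no filter on low values (adjusted p = 0.1), and without E16.5 replicate 2 or either E18.5 sample (-1.19 to -0.87, adjusted p from 0.13 to 0.2). From P5 to 4wk Hand2 fell by 1.03 on the log2 scale (adjusted p = 0.0092), and this too was lost with rescaling (-0.81, adjusted p = 0.04, below the fold threshold) and without 4wk replicate 2 or P5 replicate 2. In the 4wk samples it rested on 9 and 3 reads. The gene is at chr8:59799780-59803314 on the plus strand.

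Prph was highest in E14.5 replicate 1. In the embryo it was at 33.2, 19.0 and 17.1 FPKM on E14.5, then 15.4 and 12.3 on E16.5, then 10.8 and 12.2 on E18.5. The P5 samples differed from each other, with 10.3 FPKM in replicate 1 and 20.1 in replicate 2, while 4wk samples had 0.737 and 1.078 and 12wk samples 1.18 and 0.585. The highest adult sample was therefore well below the lowest of the other 9. Among consecutive time points limma called 1 step, from P5 to 4wk, with a log2 fold change of -3.02 ± 0.33 (SE, adjusted p = 4e-05). Tubb3, Snap25 and Ache were also higher in P5 replicate 2 than in replicate 1, with 18.8 against 8.73 FPKM for Tubb3. The ratio of Prph to Tubb3 within a library was 1.18 and 1.07 at P5, 0.585 to 1.00 in the embryo and 0.370 to 0.607 in the adult, so P5 had the highest ratios and the 2 P5 samples were close to each other on it. Prph lies at chr15:98885605-98889409 on the plus strand.

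The ligand Nrtn changed within the embryonic period. E14.5 samples had 9.94, 9.71 and 7.61 FPKM, E16.5 samples 42.3 and 44.0, and E18.5 samples 15.2 and 15.2. After birth P5 samples had 14.2 and 14.2 FPKM, 4wk samples 3.86 and 5.40, and 12wk samples 4.97 and 6.84. Both E16.5 samples stood above every other sample, and all 4 adult samples lay below the other 9. Of all tested genes, 24.3% had E16.5 above E14.5 without overlap, and 37.4% had E18.5 below E16.5. Mean Nrtn was 4.75-fold higher at E16.5 than at E14.5 and 2.84-fold lower again at E18.5. Nrtn rose from E14.5 to E16.5, with a log2 fold change of 2.14 ± 0.16 (SE, adjusted p = 1.9e-05), and fell from E16.5 to E18.5, with one of -1.45 ± 0.18 (adjusted p = 0.00097). Both calls held under every alternative run, with the rise between 2.028 and 2.201 when a sample was left out. The E16.5 samples also carried the most skeletal muscle RNA. The summed FPKM of Acta1, Ckm, Myh3, Myog and Myod1 was 266 and 643 there. It was 76.3 to 211 at E14.5 and 1.42 and 12.8 at E18.5. Epithelial RNA was also higher than before. The sum over 6 epithelial genes went from 354, 607 and 590 FPKM in E14.5 glands to 1230 and 1556 in E16.5 glands. Unlike Nrtn it stayed high in E18.5 glands, with 1461 and 1566. Limma called 3 of the 6 higher from E14.5 to E16.5, namely Krt8 (1.72), Krt18 (2.02) and Aqp5 (4.52). The part of muscle or epithelium in the Nrtn values was not tested. From P5 to 4wk Nrtn fell by 1.45 on the log2 scale (adjusted p = 8.2e-05). Rescaling the samples reduced that to -0.87 (adjusted p = 0.0083), below the fold threshold. Nrtn lies at chr17:56890748-56896953 on the minus strand.

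Gfra2, the co-receptor for neurturin, stayed high through the embryo. Its levels were 8.36, 10.4 and 10.4 FPKM on E14.5, then 10.6 and 12.7 on E16.5, and then 10.2 and 7.67 on E18.5. The P5 samples had 4.93 and 4.95 FPKM, 4wk samples 0.596 and 0.762, and 12wk samples 0.834 and 0.528. The 3 stages did not overlap, in the order embryo, P5 and adult. Of all tested genes, 33.8% had P5 below the embryo without overlap and 63.4% had the adult below P5. No step within the embryo was called. At P5 Gfra2 stood at a log2 fold change of -0.73 against E18.5 (adjusted p = 0.02) and of -0.88 against the whole embryonic stage (adjusted p = 0.0043), both short of the fold threshold. From P5 to 4wk it fell by 1.83 on the log2 scale (SE 0.18, adjusted p = 2.2e-05), and the 4wk and 12wk samples overlapped, with a log2 fold change of -0.00 (adjusted p = 1). The locus is chr14:71289927-71379645 on the plus strand.

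Ret, the signalling receptor, did not follow Gfra2. The E14.5 samples had 1.80, 2.45 and 2.35 FPKM, those of E16.5 had 1.39 and 1.5006, and those of E18.5 had 1.30 and 0.953. The P5 samples had 2.41 and 3.68 FPKM, the 4wk samples 21.9 and 19.99, and the 12wk samples 0.443 and 0.259. Ret was thus highest in both 4wk samples and lowest in both 12wk samples, on 936 and 1168 reads at 4wk and 71 and 54 reads at 12wk. The mean was 6.89-fold higher at 4wk than at P5 and 59.7-fold lower at 12wk than at 4wk. Limma called both steps, with log2 fold changes of 2.46 ± 0.19 (SE, adjusted p = 4.3e-06) and -4.02 ± 0.19 (adjusted p = 9.2e-07), and both calls held under every alternative run. The step from E18.5 to P5 had a log2 fold change of 0.91 (adjusted p = 0.0089), which was short of the fold threshold but passed it with a pseudocount of 0.1 (1.34, adjusted p = 0.016). The 4wk libraries are also the shallowest, and the part of depth in the Ret values was not tested. Ret lies at chr6:118101766-118147762 on the minus strand.

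Within a library the balance of ligand and receptors moved with age. The ratio of Nrtn to Gfra2 FPKM was 1.19, 0.934 and 0.728 in E14.5 glands, then 3.99 and 3.46 for E16.5 and 1.49 and 1.98 for E18.5. It was 2.88 and 2.87 in P5 glands, 6.49 and 7.09 in 4wk glands, and 5.96 and 12.95 in 12wk glands. All 4 adult samples thus had higher ratios than any embryonic or P5 sample, although Nrtn itself was at its lowest there. The ratio of Ret to Gfra2 was 0.118 to 0.236 in the embryo, 0.488 and 0.743 in P5 glands, 36.8 and 26.2 in 4wk glands, and 0.531 and 0.490 in 12wk glands. Only in the 4wk samples was Ret above Gfra2 per length. A ratio within a library does not depend on the scaling of that library, but it does not say which of the genes changed.

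**Figure D2:**
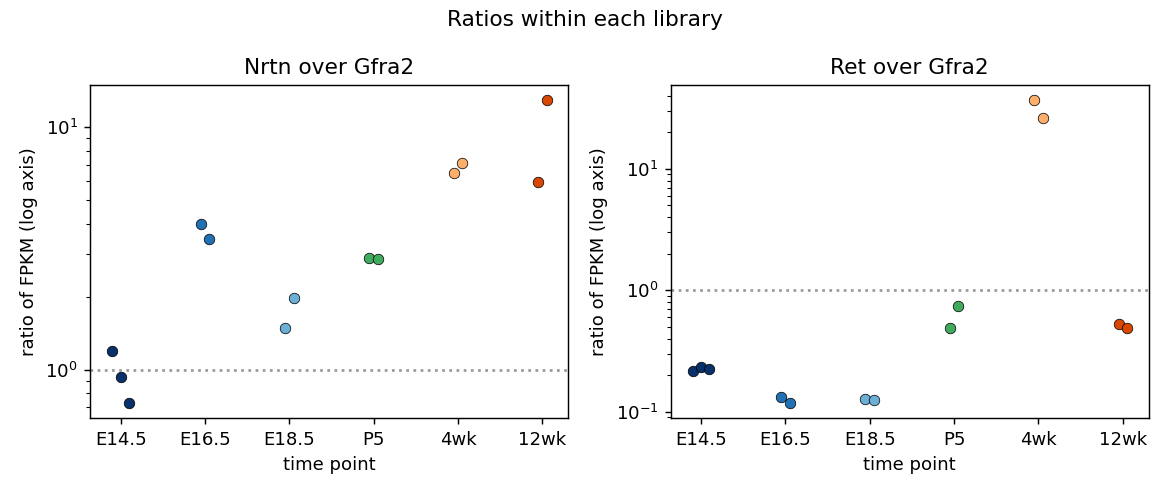
Ratio of FPKM within each library (points, log axis) by time point, for Nrtn over Gfra2 on the left and Ret over Gfra2 on the right, with the dotted line at a ratio of 1. Nrtn exceeds Gfra2 in every sample from E16.5 on, by 5.96 to 12.95 times in the adult samples, and Ret exceeds Gfra2 in the 4wk samples alone, by 36.8 and 26.2 times.

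The transmitter enzymes were low and rested on few reads, with Th near the limit of detection in all samples. Chat was at 0.221, 0.182 and 0.0799 FPKM in E14.5 glands, then 0.0491 and 0.124 for E16.5 and 0.0205 and 0.0110 for E18.5. P5 glands had 0.140 and 0.245 FPKM of it, 4wk glands none, and 12wk glands 0.0652 and 0.0626. That corresponds to at most 29 reads, in P5 replicate 2, and to a single read in each E18.5 sample. Both P5 samples lay above both E18.5 samples and all adult samples. Of all tested genes, 22.8% had P5 above E18.5 in this way and 63.4% had the adult below P5. What 3 reads on Chat are worth was 0.184 and 0.134 FPKM in the 4wk libraries, above or near the P5 level, so its lack of reads at 4wk does not show a lower level. Slc18a3, which lies within the first intron of Chat, was 4.39 to 34.9 times as high as Chat per length in the embryo and 6.80 and 6.58 times at P5. Th, at chr7:150078657-150117033 on the minus strand, had 0 to 0.0898 FPKM and at most 5 reads in any sample, and 0 reads in E16.5 replicate 1, E18.5 replicate 1 and both 4wk samples. With the filter on low values dropped, so that both genes entered the fit, neither was called in any of the 8 comparisons. Their log2 fold changes in adult against embryo were -0.09 for Chat (adjusted p = 0.22) and -0.04 for Th (adjusted p = 0.21), on a scale that compresses levels this low. Chat lies at chr14:33221389-33279095 on the minus strand.

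Across stages, the adult glands had less of 5 of the 6 tested genes than the embryonic ones. In the limma comparison of adult against embryo 5 of the 6 tested genes were called, all lower in the adult, where 38.0% of all tested genes were called lower and 5.58% higher. Mean Gfra2 was 10.1 ± 1.65 FPKM (SD, n = 7) in the embryo and 0.680 ± 0.142 (n = 4) in the adult, 14.8-fold lower. For Phox2a the means were 2.95 ± 1.67 and 0.0662 ± 0.0940 FPKM, for Hand2 5.97 ± 3.62 and 0.294 ± 0.266, for Prph 17.1 ± 7.66 and 0.895 ± 0.280, and for Nrtn 20.6 ± 15.7 and 5.27 ± 1.23. Embryonic and adult samples did not overlap for any of these 5 genes, which was so, in the same direction, for 54.1% of all tested genes. The log2 fold changes were -3.18 ± 0.27 for Prph (SE, adjusted p = 1.8e-07), -2.71 ± 0.14 for Gfra2 (adjusted p = 2.7e-09), -2.28 ± 0.35 for Hand2 (adjusted p = 4.6e-05), -1.79 ± 0.27 for Phox2a (adjusted p = 3.4e-05) and -1.51 ± 0.42 for Nrtn (adjusted p = 0.0048). Relative to the median gene these came to -2.43, -1.96, -1.52, -1.04 and -0.75. After rescaling, 14.7% of genes were called lower and 13.8% higher, and Prph (-2.55), Gfra2 (-2.12), Hand2 (-1.85) and Phox2a (-1.503) were still called while Nrtn was not (-0.67, adjusted p = 0.18).

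Ret alone was not called between adult and embryo, at a log2 fold change of 1.05 ± 0.70 (SE, adjusted p = 0.19). Its adult mean of 10.7 ± 11.9 FPKM (SD, n = 4) joined 4wk samples of 21.9 and 19.99 to 12wk samples of 0.443 and 0.259. Its embryonic samples, between 0.953 and 2.45 FPKM, lay between those 2 ages without overlap. Rescaling gave 1.63 (adjusted p = 0.082) and leaving out 12wk replicate 1 or 2 gave 1.69 (adjusted p = 0.039) and 1.75 (adjusted p = 0.028), all called. Without both 4wk samples the sign turned, to -0.96 in adult against embryo (adjusted p = 0.0025, short of the fold threshold) and to -1.57 in adult against P5 (adjusted p = 0.0015, called), where all samples gave 0.45 (adjusted p = 0.73).

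**Figure D3:**
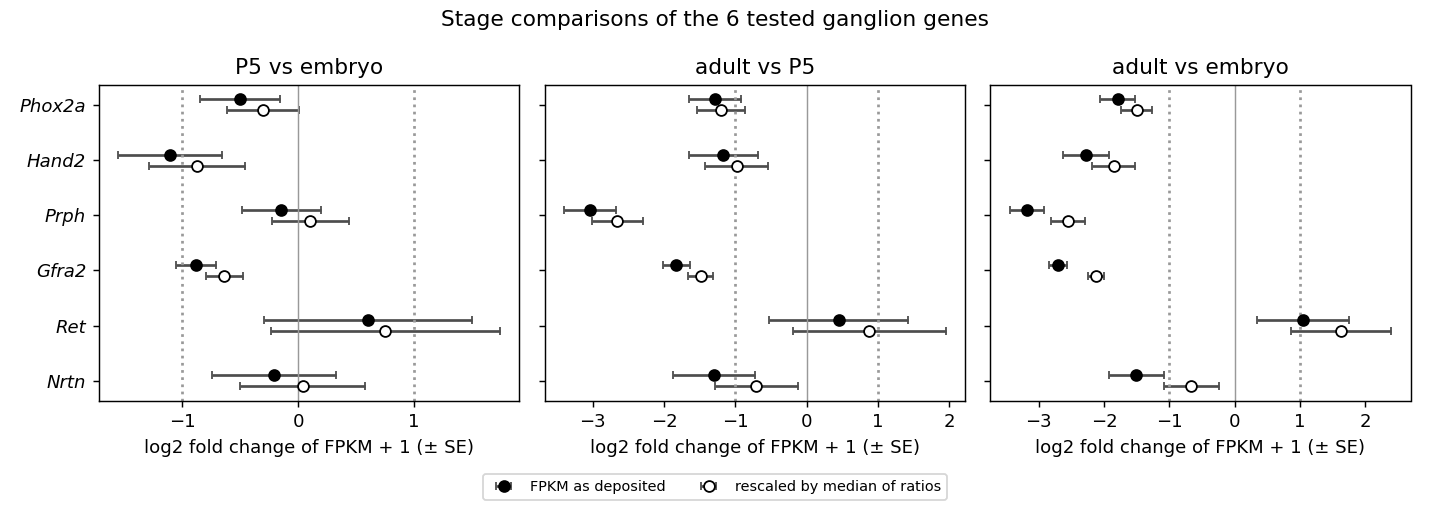
Log2 fold change of FPKM + 1 (± SE of the limma fit) for the 6 tested genes in the 3 stage comparisons, from the deposited FPKM (filled) and after rescaling by the median of ratios (open), with dotted lines at the fold threshold of 1 in either direction. Prph, Gfra2, Hand2 and Phox2a lie below -1 in adult against embryo on both scales, Nrtn moves from -1.51 to -0.67, and Ret has the widest errors.

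In P5 against embryo 1 of the 6 genes was called lower, Hand2 at a log2 fold change of -1.11 ± 0.45 (SE, adjusted p = 0.079), against 8.14% of all tested genes lower. That call was lost with rescaling (-0.87, adjusted p = 0.15) and without any 1 of the 3 E14.5 samples, E16.5 replicate 2 or either P5 sample (-1.27 to -0.92, adjusted p from 0.092 to 0.35). Gfra2 was at -0.88 ± 0.18 (SE, adjusted p = 0.0043), lower in both P5 samples than in all 7 embryonic ones but short of the fold threshold. P5 lay below the embryo without overlap for 33.8% of all tested genes. The other 4 had log2 fold changes of -0.50 for Phox2a, -0.14 for Prph, -0.21 for Nrtn and 0.60 for Ret, with adjusted p between 0.27 and 0.79, and the rescaled values of Prph and Nrtn were above 0 (0.10 and 0.038). In adult against P5, 5 of the 6 genes were called lower, against 20.8% of all tested genes. They were Prph at -3.04 ± 0.37 (SE, adjusted p = 6e-05), Gfra2 at -1.83 ± 0.19 (adjusted p = 2.1e-05), Phox2a at -1.29 ± 0.37 (adjusted p = 0.013), Nrtn at -1.30 ± 0.58 (adjusted p = 0.079) and Hand2 at -1.17 ± 0.48 (adjusted p = 0.062). Rescaling ended the calls of Nrtn (-0.70, adjusted p = 0.4) and Hand2 (-0.98, adjusted p = 0.12), and both were also lost without 12wk replicate 1, 4wk replicate 2 or either P5 sample, Nrtn without 4wk replicate 1 (adjusted p from 0.11 to 0.24) and Hand2 without 12wk replicate 2 (adjusted p from 0.1 to 0.25). Without P5 replicate 2 Phox2a was lost too (-1.096, adjusted p = 0.11), which left Prph and Gfra2 as the 2 calls. All 4 adult samples were below both P5 samples for 5 of the 6 tested genes, all but Ret, as they were for 63.4% of all genes tested.

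Between consecutive time points the 6 tested genes changed at few steps. From E14.5 to E16.5 only Nrtn was called, in a comparison where 4.17% of all tested genes were called higher and 0.983% lower. From E16.5 to E18.5 Nrtn and Hand2 were called lower, against 1.85% of all genes. None was called from E18.5 to P5, where 5.04% of all genes were called in either direction. Ret (0.91, adjusted p = 0.0089) and Gfra2 (-0.73, adjusted p = 0.02) passed the threshold for the adjusted p there but not the fold threshold. From P5 to 4wk all 6 were called, 5 lower and Ret higher, against 22.1% of genes lower and 2.19% higher. From 4wk to 12wk Ret alone was called lower, against 2.48% of all genes. The P5 to 4wk step joins the deepest libraries to the shallowest, and 2.19% higher against 22.1% lower became 6.37% and 8.72% with rescaling, under which Phox2a (-1.33), Prph (-2.63), Gfra2 (-1.48) and Ret (3.09) kept their calls.

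Related genes were read against the same background in adult against embryo, with 38.0% of all tested genes called lower and 5.58% higher. Of 18 genes of neuron identity 13 were tested and 9 were called lower, none higher, with a median log2 fold change of -1.16 against -0.75 for all genes, and after rescaling the count was 5. Gap43, a protein of growing axons, was at 57.8, 44.0 and 44.7 FPKM at E14.5 and between 0.564 and 1.06 FPKM in adult glands, a log2 fold change of -4.30 (adjusted p = 1.4e-08). Stmn2 (-3.29, adjusted p = 4.5e-07), Uchl1 (-3.04, adjusted p = 3.4e-06) and Tubb3 (-2.93, adjusted p = 3e-06), all abundant in neurons, were also lower. The summed FPKM of the list was 64.9 to 225 in the embryo, 45.4 and 85.1 at P5 and 5.89 to 10.5 in the adult.

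Of the 10 genes of the cholinergic list 7 were tested, 2 were called lower and 1 higher, with a median log2 fold change of -0.78 that is close to that of all genes. Ache, which breaks down acetylcholine, and its membrane anchor Prima1 were lower at -1.27 (adjusted p = 0.00011) and -1.101 (adjusted p = 0.0018), and Nos1, neuronal nitric oxide synthase, was higher at 1.16 (adjusted p = 0.0014). Slc18a3 stood at -0.61 (adjusted p = 0.0026), Slc5a7 at -0.45 (adjusted p = 0.0071), Chrna3 at -0.93 (adjusted p = 0.0031) and Vip at -0.78 (adjusted p = 0.077), all short of the fold threshold on a scale that compresses low levels. In FPKM the means were 0.738 ± 0.313 (SD, n = 7) in the embryo and 0.131 ± 0.117 (n = 4) in the adult for Slc18a3, 2.55 ± 0.869 and 0.451 ± 0.223 for Ache, and 1.48 ± 0.737 and 0.282 ± 0.316 for Chrna3. With a pseudocount of 0.1 the count of called genes was 6 in place of 3. With rescaling it was 1, a higher call, and no gene of the list was called lower. Of all 14650 tested genes, that pseudocount gave 7326 called lower and 1093 higher, in place of 5567 and 818. Rescaling gave 2147 and 2019.

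Among 9 noradrenergic genes 7 were tested, with 3 called lower and 1 higher, a share of lower calls near the 38.0% of all genes. After rescaling 2 were called lower and 1 higher. Maoa, which breaks down monoamines, was at -2.35 (adjusted p = 3.2e-08) and Slc18a2, their vesicular transporter, at -1.21 (adjusted p = 1.3e-06). Ddc, an enzyme that both catecholamine and serotonin cells use, fell from 8.49, 6.74 and 6.11 FPKM at E14.5 to at most 0.110 in the adult, a log2 fold change of -2.39 (adjusted p = 1.3e-05). Cyb561, found in many secretory vesicles, was at 10.9 to 12.1 FPKM at E14.5 and at 33.7 to 60.4 in the adult (1.06, adjusted p = 0.0093). Of 8 other genes of the GDNF family 5 were tested and 3 were called lower, the co-receptors Gfra1 (-1.19, adjusted p = 0.014) and Gfra4 (-1.87, adjusted p = 0.00019) and the adhesion receptor Ncam1 (-1.71, adjusted p = 9.3e-05). Those 3 calls stand beside 38.0% of all genes called lower, and after rescaling, with 14.7% lower and 13.8% higher, the list had 2 lower and 1 higher. Gfra3, the co-receptor for artemin, stood at 0.91 (adjusted p = 0.00041). Of the other ligands Gdnf was at most 0.547 FPKM, Artn at most 0.542 and Pspn, persephin, at most 1.34 in any sample, and Pspn stood at -0.51 (adjusted p = 0.014). Nrtn was the most abundant ligand of the family in all 13 samples.

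Of 9 genes of Schwann cells and satellite glia 8 were tested and 1 was called lower, Fabp7, a marker of immature glia, at -3.88 (adjusted p = 1.4e-07). The count of calls was 4 with a pseudocount of 0.1, 2 with rescaling (1 lower and 1 higher) and 4 with both. With that pseudocount the calls over all 14650 tested genes also rose, to 7326 lower and 1093 higher from 5567 and 818. Sox10, which marks neural crest glia but is also made by salivary epithelium, ranged from 26.6 to 71.9 FPKM and stood at -0.47 (adjusted p = 0.043). Erbb3 (-0.37, adjusted p = 0.044) and Mbp (0.19, adjusted p = 0.2) were also not called. The summed FPKM of the list was 85.3 to 130.3 in the embryo, 80.2 and 86.7 at P5 and 51.8 to 70.6 in the adult, and Sox10 and Erbb3 held most of it in the adult, at means of 31.9 and 14.6 FPKM. Of 7 genes of sensory neurons 3 were tested, with Ntrk3 lower (-1.88, adjusted p = 1.2e-05), Tac1 higher (1.101, adjusted p = 0.0037) and Calca (-0.39, adjusted p = 0.026) not called, while Trpv1 was at most 0.141 FPKM. Markers of 2 other kinds of gland cell differed from each other in the same comparison. The summed FPKM of 4 mesenchyme genes was 587 to 1003 in the embryo and 42.0 to 101 in the adult, with all 4 called lower. That of 6 epithelial genes was 354 to 607 at E14.5, 1230 to 1566 at E16.5 and E18.5, and 1385 and 1607 at P5. In the adult it was 770 to 965, above every E14.5 sample and below every E16.5, E18.5 and P5 sample. Among the 6, 1 was called higher, 1 lower and 4 were not called. The part of mesenchyme and epithelium in the neuronal values was not tested.

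**Figure D4:**
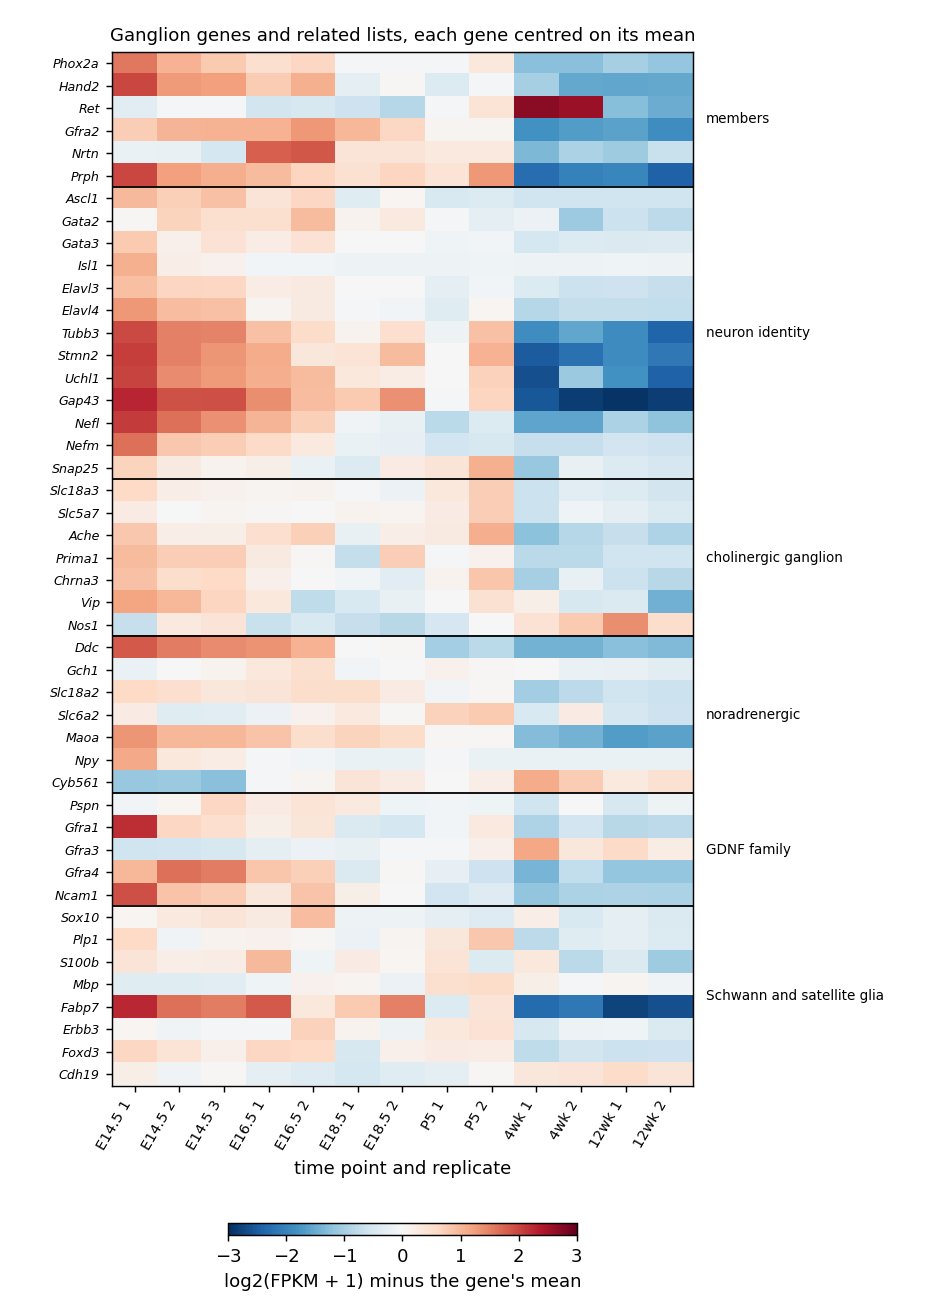
Log2(FPKM + 1) minus the gene's mean over the 13 samples (color, from -3 to 3) for the tested ganglion genes and 5 related lists, with samples in columns by time point and replicate. The columns of the 4 adult samples are mostly below the mean for the genes from Phox2a to Ncam1, with Ret at 4wk, Nos1, Cyb561 and Gfra3 above it, and E14.5 replicate 1 has the highest values of many neuronal genes.

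The sample E14.5 replicate 1 was the highest of all 13 for Phox2a, Hand2 and Prph. In it Myog was at 47.3 FPKM against 12.7 and 10.8 in the other E14.5 samples, Gfra1 at 8.36 against 2.09 and 1.84, and the acinar water channel Aqp5 at 0.568 against 9.13 and 5.98. Gfra2 and Ret were instead lowest in that sample of the 3. Without it adult against embryo gave log2 fold changes of -1.63 for Phox2a (adjusted p = 1.7e-05), -2.09 for Hand2 (adjusted p = 3.8e-05) and -3.02 for Prph (adjusted p = 9.2e-08), and Nrtn still rose from E14.5 to E16.5 (2.201, adjusted p = 4.6e-05).

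For each gene the 3 others with the most similar course were listed by Pearson's r of log2(FPKM + 1) over the 13 samples among 12930 genes with a mean of at least 1 FPKM. The samples share the same ages and libraries, so high values are common and carry no p. Phox2a was most like Col24a1 (r = 0.988), Kif1a (0.987) and Efnb2 (0.984), Hand2 most like Scn3b (0.991), Tmem231 (0.989) and Kremen2 (0.988), and Prph most like Vat1l, Zcchc12 and Stmn2 (each 0.988). Gfra2 was closest to Sgol1 (0.993), Rbl1 (0.993) and Cep72 (0.992), and Nrtn to Nr2f6 (0.954), Ccdc85b (0.943) and 0610012G03Rik (0.933). Ret was closest to Atp6v1c2 (0.949), Gal (0.941) and Dio1 (0.889), which had 4wk means of 7.87, 7.98 and 6.76 FPKM and 12wk means of 0.750, 0.217 and 0.150. Chat (Chgb 0.876, L1cam 0.851, Abca2 0.819) and Th (Abca2 0.844, Atp10d 0.827, Acp6 0.824) had lower values, on few reads.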

How the data were processed

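Submandibular gland RNA was sequenced in 13 samples at 6 time points. The authors aligned the reads with TopHat2 2.0.13 and Bowtie2 2.2.6 to mm9, counted them on genes with featureCounts, leaving out reads at several places or on several genes, and deposited FPKM for each gene and sample. The deposited FPKM were found to be scaled to the total reads on genes, since for all 20268 genes above 0 the values were whole multiples of 1 read within a tolerance of 1e-05, and the median normalization that the study describes was run as an alternative. Limma 3.58.1 (R 4.3.3, with a mean-variance trend) was fitted to log2(FPKM + 1) of the 14650 genes that reached 1 FPKM in 1 sample or more, once with the 3 stages and once with the 6 time points as groups. Calls needed a log2 fold change of at least 1 and a Benjamini-Hochberg adjusted p below 0.1, two-sided, which are the thresholds of the study. A fold change on this scale understates that of low genes. Replicates are separate samples in the labels. Means of FPKM carry the SD over samples.

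The genes and the related lists were chosen with earlier results of these data known. All 8 members are given in every sample. From each list, values are given for the 4 genes of highest mean FPKM and for Slc18a3, Slc5a7, Vip, Dbh, Gfra1, Gdnf, Artn and Sox10, and other list genes named beside a count were chosen after their values were seen. The 3 most similar genes by Pearson's r were taken for each member. Fits were tested on simulated data. Alternatives were a pseudocount of 0.1, no filter, a filter on 2 samples, rescaling by the median of ratios, a threshold of 0.05 for the adjusted p, no trend, a replicate block, other sets of samples and leaving out each sample. Reads and floors of 3 reads cover counting error only. Loci come from GENCODE vM1 on mm9 by symbol, and promoters from RefSeq. A gene each of the neuron identity, sensory and glial lists is not reported here and is left out of all counts and sums over the lists.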

Additional observations from a re-analysis of the deposited data

Results flagged for a closer look

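Each of the 8 genes was searched in the embryonic and in the adult stage. In 2 of these groups a sample lay farther from the rest than Dixon's test allows at the 95% level. Chance gives about 1 in 20 of the groups searched. Each stage joins more than 1 age, so the test cannot tell an outlying library from a change with age. Hand2 was at 0.692 FPKM in 4wk replicate 1, the highest of the 4 adult samples, and the next was 0.173, a gap of 0.946 of the range. That value rests on 9 reads in the shallowest library. Prph was at 33.2 FPKM in E14.5 replicate 1, the highest of the 7 embryonic samples, with 19.0 next, a gap of 0.632 of the range.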

How the results depend on the processing

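Of the log2 fold changes of the 6 tested genes under the alternatives, 972 kept their sign and their side of the thresholds, 46 lost a call, 9 gained one and 23 changed sign. All sign changes but those of Ret were of values that were not called under any setting. Without both 4wk samples, an alternative chosen after seeing the data, Ret turned to -0.96 in adult against embryo and -1.57 in adult against P5, where a pseudocount of 0.1 gave -0.014 and leaving out samples gave -0.25 to 1.15. Rescaling alone, and with a pseudocount of 0.1 (also chosen after seeing the data), turned P5 against embryo to 0.038 and 0.059 for Nrtn and to 0.10 and 0.11 for Prph, and P5 against E18.5 to 0.058 and 0.062 for Nrtn. Leaving out samples gave ranges across 0 for P5 against embryo of Nrtn (-0.38 to 0.019) and Prph (-0.60 to 0.31), for P5 against E18.5 of Hand2 (-0.28 to 0.053), Phox2a (-0.020 to 0.36) and Prph (-0.15 to 0.76), and for 12wk against 4wk of Gfra2 (-0.13 to 0.13) and Prph (-0.26 to 0.20).

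The number of the 6 genes called in P5 against embryo went from 1 to 0 at an adjusted p of 0.05, with a pseudocount of 0.1, no filter, rescaling, rescaling with that pseudocount, a replicate block or only the compared stages fitted. It went from 5 to 3 in adult against P5 at an adjusted p of 0.05, with no filter and with rescaling. From E16.5 to E18.5 it went from 2 to 1 with a pseudocount of 0.1, no filter, rescaling and both together. With a pseudocount of 0.1, rescaled or not, it went from 0 to 1 from E18.5 to P5 (Ret) and from 1 to 2 from 4wk to 12wk, where Phox2a was added on 7 and 3 reads. Leaving out samples gave 0 to 1, 2 to 5, 1 to 2 and 0 to 1 for the first 4 of these comparisons. Of the related lists in adult against embryo, neuron identity had 5 calls with rescaling in place of 9. The cholinergic list had 6 with a pseudocount of 0.1, 1 (a higher call) with rescaling and 5 with both in place of 3. The GDNF family had 5 with a pseudocount of 0.1 in place of 3. Glia had 4, 2 and 4 in the same order in place of 1, 2 without both 4wk samples, and 1 to 2 when a sample was left out. Sensory neurons had 1 to 2 in place of 2 when a sample was left out. Over all 14650 tested genes, calls in adult against embryo were 5567 lower and 818 higher as first fitted. They were 7326 and 1093 with a pseudocount of 0.1, and 2147 and 2019 with rescaling. The cause of these changes was not tested.

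The replicate numbers share no stated origin, and samples with the same number did not deviate together (mean r = -0.02 over 30 pairs, -0.35 to 0.27, against 0.01 over 40 pairs of different numbers). With the replicate block P5 against embryo had 0 calls, Hand2 being at -1.05 (adjusted p = 0.14), and no other member lost or gained a call. Depth limits Chat, Th and the 4wk values of Phox2a and Hand2.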
